A study of Mus musculus with 23 samples.

Results

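The 9 RNAs described here are long noncoding RNAs that are best known from the cell nucleus: Malat1, Neat1, Meg3, Rian, Mirg, Miat, Snhg11, Peg13 and Pantr1. They were taken by name for what is known of their location, although earlier results of these data were known at that point. Each matched 1 Ensembl ID among the 55487 gene IDs counted. The data come from hippocampal neurons of newborn C57Bl/6 mice (postnatal day 1), with 200000 cells seeded on the soma side of a microfluidic chamber, a device whose narrow channels let axons, but not cell bodies, grow into a second compartment. All 4 groups grew in medium with 5 µg/ml of magnetic nanoparticles (MNPs). Stretched cultures were exposed to a magnetic field gradient of 50 T/m from day 1 to day 6 in vitro, which pulls on the particles inside the neurites, and control cultures had a null gradient. RNA was sequenced from the axonal side (labelled as a pure axonal preparation, 5 control and 6 stretched libraries) and from the soma side (labelled as total cell culture, 6 control and 6 stretched libraries). The labels do not say which libraries came from separate cultures, so p-values measure the spread between these libraries. A soma library can hold axons and glia as well as cell bodies.

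Many long noncoding RNAs with a role in chromatin or splicing stay in the nucleus, where they are made. Malat1 sits in nuclear speckles, bodies that store splicing factors, and its end is cut by RNase P and folds into a triple helix in place of a poly(A) tail. Neat1 is the scaffold of paraspeckles, and its long form ends in the same way. Meg3, Rian and Mirg are made from the maternal copy of the imprinted Dlk1-Dio3 cluster, in which Rian hosts many snoRNAs and Mirg many miRNAs. Peg13 is made from the paternal copy of an imprinted locus inside an intron of Trappc9. Miat (also called Gomafu) forms its own nuclear foci in neurons and binds splicing factors, Snhg11 is a snoRNA host gene with high expression in neurons, and Pantr1 is the divergent neighbour of Pou3f3, a transcription factor of the developing cortex. The values below give how much of each was counted on either side of the chamber, and in how many libraries.

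In the GRCm38 annotation (the build of the counts, mm10), Malat1 lies at chr19:5795690-5802672 and Neat1 at chr19:5824708-5845478, both on the minus strand and each as 1 exon. Meg3 (chr12:109541001-109571726), Rian (chr12:109603940-109661716) and Mirg (chr12:109729764-109749460) follow each other on the plus strand. Miat lies at chr5:112213228-112229395 on the minus strand, Snhg11 at chr2:158375638-158386145 on the plus strand, Peg13 at chr15:72805600-72810324 on the minus strand and Pantr1 at chr1:42590782-42694842 on the minus strand. GENCODE lists Snhg11 as protein coding and Peg13 as a sense intronic transcript. The exons of 3 of the 9 share bases with a gene on the opposite strand: Malat1 shares 453 bases with Gm37376, Meg3 shares 1228 with Gm26906 and Miat shares 2260 with Gm26953. The sources used here do not state whether the counts used strand, so reads of these stretches cannot be assigned with certainty.

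The cDNA was primed on poly(A), and Malat1, Rian and Pantr1 carry a run of at least 12 A inside an annotated transcript, as do 18.3% of the 9525 genes that reached 10 CPM (counts per 1000000 assigned reads) in somata. These runs are shown because an oligo(dT) primer can also bind inside a transcript; whether that happened here was not tested. Sequences are from GENCODE transcripts, 5′ to 3′, with the longest A run in capitals and up to 20 bases on each side. Malat1 has its run at bases 6674 to 6685 of a transcript of 6983 bases, Rian at 5309 to 5323 of 8089 and Pantr1 at 75 to 86 of a short form of 506. Miat is added for contrast, since its longest run has 4 A.
Malat1: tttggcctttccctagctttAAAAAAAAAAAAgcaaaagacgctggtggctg
Rian: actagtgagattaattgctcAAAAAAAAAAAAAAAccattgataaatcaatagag
Pantr1: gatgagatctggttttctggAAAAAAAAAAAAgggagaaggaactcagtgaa
Miat: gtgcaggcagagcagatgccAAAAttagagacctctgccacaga
The longest run had 9 A in Snhg11, 7 in Neat1 and 5 each in Mirg and Peg13.

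Between 16369153 and 43048953 reads were assigned to genes per library. Axonal libraries held 4263 to 10242 genes with a count and soma libraries 22452 to 24575. Reads outside annotated exons made up 4.24% to 8.64% of reads in axonal libraries and 3.44% to 6.01% in soma libraries. Astrocyte markers were present in the axonal libraries: none of 8 was at 0 in all libraries of either axonal group. Their summed level was 4651 to 25630 CPM in control axons, 4790 to 19600 in stretched axons and 5120 to 14080 in somata. The sum was mostly Gfap, with a mean of 12710 of 15710 CPM in control axons. None of the 8 passed between axons and somata. In control cultures only Gfap and Aldoc had positive log2 fold changes (0.67 and 0.78), and the median was -0.48. Aqp4 (31.2 against 311 CPM) and S100b (0.558 against 9.16) were lower there without overlap. Of 8 markers each, 5 of microglia, 4 of the oligodendrocyte lineage and 3 of fibroblasts and vessel cells were at 0 in all control axons. The corresponding numbers in stretched axons were 1, 4 and 3. Neuronal markers summed to 1283 to 4385 CPM in control axons, 2314 to 3958 in stretched axons and 5417 to 6827 in somata, and none of 8 was at 0 throughout. The part of cells other than neurons in the axonal values below was not tested.

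All 9 RNAs were detected, meaning at least 3 counts, in all 12 soma libraries. Per kilobase of exon, Malat1 had the highest level in control somata (160 ± 44.5 CPM per kb, SD, n = 6), followed by Peg13 at 45.8 ± 14.3 and Meg3 at 31.0 ± 6.06. Pantr1 (9.33 ± 4.18), Rian (7.14 ± 0.687) and Snhg11 (7.08 ± 2.04) formed a middle tier. Miat (2.15 ± 0.726), Mirg (0.756 ± 0.197) and Neat1 (0.389 ± 0.286) were lowest. Library ranges did not overlap between Malat1 and Peg13, between Meg3 and Pantr1, between Snhg11 and Miat, or between Miat and Mirg, while Peg13 and Meg3, the 3 RNAs of the middle tier, and Mirg and Neat1 overlapped with their neighbours in the order. In stretched somata Malat1 (84.3 ± 33.4 CPM per kb) and Peg13 (71.0 ± 7.96) overlapped, and Rian, Snhg11 and Pantr1 came in that order, each overlapping with the next. Neat1 is annotated here with its full length of 20.8 kb, so its level per kb averages over a long and a short form and is lowered where only the short form was counted. The lengths join the exons of all annotated transcripts, 18.1 kb for Meg3 and 18.2 kb for Rian, so the order depends on them. Before division by length, Meg3 (561 CPM) was above Peg13 (216 CPM) in control somata.

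In axonal libraries detection ran from 11 of 11 for Malat1 to 2 of 11 for Neat1. Meg3 was detected in 10, Rian, Peg13 and Pantr1 in 9 each, Snhg11 in 6, Miat in 5 and Mirg in 3. Together 64 of the 99 axonal values reached 3 counts. The 4 RNAs that averaged 100 CPM or more over the soma libraries (Malat1, Meg3, Rian, Peg13) were detected in 39 of 44 values, or 88.6%, beside 73.5% over all 2367 genes of that soma level. Miat, Snhg11 and Pantr1, between 10 and 100 CPM, were detected in 20 of 33 values (60.6%), beside 36.6% over 7162 genes. Neat1 and Mirg, under 10 CPM, were detected in 5 of 22 values (22.7%), beside 12.6% over 4387 genes. In each of these wide classes the share was above that of all genes, over few RNAs and without a test. In narrower bins of soma level (0.5 on the log2 scale), 7 of the 9 lay between the 25th and 75th percentile of all genes in their bin: Malat1 and Meg3 were at the median of 11 and 10 libraries, and Peg13 at the median of 9. Pantr1, with 9 libraries, was above the 75th percentile of its bin (6, median 4), and so was Mirg, with 3 (75th percentile 2, median 1). Neat1 (2), Rian (9) and Miat (5) were at the 75th percentile of their bins, with medians of 1, 8 and 3. Snhg11, with 6, was above its median of 5. None of the 9 thus lay below the median of its bin, over few RNAs and without a test. Among genes of 10 to 100 CPM, those with an internal run of at least 12 A were detected in 37.3% of axonal values and those without in 36.4%; at 100 CPM or more the shares were 74.8% and 73.2%.

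**Figure D1:**
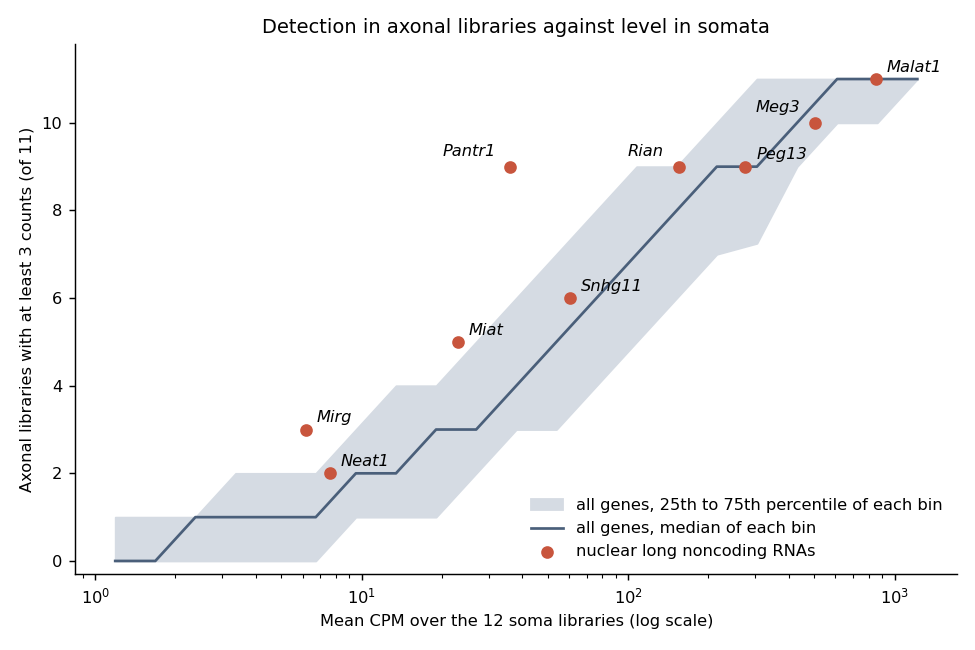
Detection of each RNA in axonal libraries (y axis, number of 11 libraries with at least 3 counts) against its mean CPM in 12 soma libraries (x axis, log scale). The line and band give the median and the 25th to 75th percentile of all genes in bins of soma level. Pantr1 at 9 and Mirg at 3 lie above the band of their bins, and the other 7 within it or at its upper edge.

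Malat1, the speckle RNA, had 679, 839.7, 508, 2057 and 1782 CPM in control axon libraries 1, 2, 3, 5 and 7. In stretched axons it ran from 308.5 (median 579) to 2777 CPM. In control somata it ran from 851 (median 984.5) to 1624. The axonal values therefore lay on both sides of the soma values: in control cultures the means were 1173 ± 698 CPM in axons (n = 5) and 1116 ± 311 in somata (n = 6), a log2 fold change of -0.13 (SE 0.41, adjusted p = 0.917). In stretched cultures the means were 894 ± 936 and 588.5 ± 233 CPM (log2 fold change 0.00, SE 0.49, adjusted p = 0.998). Stretched axon library 1 held 2777 CPM, and the other 5 held 308.5 to 745. Without that library the log2 fold change was -0.60 (adjusted p = 0.273), and the range over leaving out each library in turn was -0.60 to 0.35. The direction of Malat1 between axons and somata also changed with scaling to total counts in control cultures (0.07).

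Neat1, the paraspeckle scaffold, was detected in 1 library of each axonal group. Control axon library 2 held 41.2 CPM (825 counts), library 3 held 1 count, and the other 3 had no count. Stretched axon library 8 held 66.7 CPM (1318 counts), and the other 5 had none. For counting error alone, a count of 0 allows up to 0.183 CPM in the shallowest library. In somata the level was 2.15 (median 6.54) to 16.1 CPM in control and 4.49 (median 7.62) to 9.94 in stretched cultures. The library with Neat1 was thus above all somata in either condition, and the others were below them. The fold changes of the whole groups, -0.40 (SE 2.01) and 0.40 (SE 2.24) on the log2 scale, did not pass the test (adjusted p = 0.952 and 0.973). Leaving out the library that held it leaves axonal libraries with at most 1 count, so the negative fold changes of those fits (adjusted p = 0.000146 without control axon 2 and 1.72e-06 without stretched axon 8) were set by the choice of library and are no test of Neat1.

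Meg3, the most abundant of the 3 Dlk1-Dio3 cluster RNAs, was present in all control axons, at 330.5, 389, 868.5, 545 and 761 CPM in libraries 1, 2, 3, 5 and 7. Control somata held 432 (median 554) to 736 CPM, so that the groups overlapped (log2 fold change -0.18, SE 0.31, adjusted p = 0.834). In stretched axons Meg3 had 147, 0.122, 225, 391, 271 and 123 CPM in libraries 1, 2, 4, 5, 6 and 8, against 364 (median 436) to 597.5 in stretched somata. Stretched axon 2, with 2 counts, had almost none, and stretched axon 5 alone reached the soma range. The log2 fold change was -1.66 (SE 0.97, adjusted p = 0.323), and without stretched axon 2 it was -1.38 and passed the test (adjusted p = 0.00374).

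Rian, the snoRNA host of the cluster, ranged more widely. It had 397, 3.49, 0, 222 and 186.5 CPM in control axons, around a soma range of 118 (median 128) to 147.5. In stretched axons it ran from 0 (median 16.6) to 109.9 CPM, all below the stretched somata (154 to 214, median 170.5). Control axon values lay above and below the somata (log2 fold change 0.06, SE 1.40, adjusted p = 0.989). Those of stretched axons did not overlap with somata, yet the spread left the fold change of -2.78 (SE 1.504) short of the threshold (adjusted p = 0.265).

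Mirg, the miRNA host at the end of the cluster, was found in 3 of 5 control axons, at 114 CPM (2587 counts) in library 3, 17.2 in library 5 and 0.233 (6 counts) in library 7. It had no count in any of the 6 stretched axons. Somata held 3.92 to 6.99 CPM in control and 3.99 to 9.08 in stretched cultures. In control cultures the difference was not resolved (log2 fold change 2.09, SE 1.86, adjusted p = 0.570), and without control axon 3 it was -0.38. In stretched cultures Mirg passed as lower in axons (adjusted p = 4.18e-06). It entered that test through the somata, so the call records non-detection in axons. Setting each axonal library to 3 counts gives a bound of at least 49.2-fold, which covers counting error only. Non-detection was common at this soma level: the 744 genes in the bin of Mirg had a median of 1 axonal library with detection, over both conditions. The 3 cluster RNAs were not always detected in the same libraries: control axon 3 had the highest Meg3 and Mirg of its group but no Rian, and control axon 1 had the highest Rian but no Mirg. Missed detection in axonal libraries can give such a pattern, and its part was not tested.

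Peg13, imprinted on the opposite parental copy, had 380, 28.7, 237, 285 and 28.8 CPM in control axons, while control somata held 168 (median 196) to 352. In stretched axons it had no count in libraries 1 and 2 and 154, 121, 296 and 58.4 CPM in libraries 4, 5, 6 and 8, all below the 298 to 391 CPM of stretched somata. The fold changes were -0.39 (SE 0.70, adjusted p = 0.841) in control and -2.08 (SE 1.59, adjusted p = 0.524) in stretched cultures.

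Pantr1, transcribed divergently from Pou3f3, had a higher mean in control axons than in control somata. It had 199, 158, 149.8, 46.6 and 141 CPM there, and 21.9 (median 42.8) to 62.5 in control somata. Only control axon 5 fell within the soma range. The log2 fold change was 1.44 (SE 0.61), with an unadjusted p of 0.0375 and an adjusted p of 0.102. Without control axon 5 it was 1.64 and passed (adjusted p = 0.0265), in a fit that called 53.6% of all genes. It also passed with DESeq2 (1.59, adjusted p = 0.00103). It did not pass without the filter (1.29, adjusted p = 0.203) or with the replicate number as a block (1.04, adjusted p = 0.745). Stretched axons held 0 (median 32.5) to 143 CPM, with no count in libraries 2 and 6, and stretched somata 21.7 to 39.8 (log2 fold change 0.22, SE 1.57, adjusted p = 0.980).

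Snhg11 was absent from control axons 1 and 2 and had 17.7, 42.5 and 239 CPM in libraries 3, 5 and 7. Stretched axons held 0 (median 0.187) to 7.08 CPM. Somata held 39.8 (median 61.3) to 89.6 CPM in control and 45.6 (median 61.0) to 74.8 in stretched cultures. The stretched axons were all below the somata, at a log2 fold change of -5.15 (SE 1.81) and an adjusted p of 0.0529. That value passed under 6 of the alternatives, with DESeq2 at an adjusted p of 0.000259 and without stretched axon 8 at 0.0277. In control cultures the groups overlapped (log2 fold change -0.23, SE 1.75, adjusted p = 0.969).

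Miat was the only RNA of the 9 that passed between compartments in control cultures. Of 5 control axons, 4 had no count and library 7 had 3 counts, or 0.117 CPM. Control somata held 12.9 (median 18.0) to 28.9 CPM. Miat was lower in axons at a fitted log2 fold change of -9.68 (SE 1.60, adjusted p = 0.00034), and the ratio of the summed levels was 882 (95% exact interval 302 to 4282, counting error only). Stretched axons held 0, 0.183, 4.63, 96.5, 0 and 1.06 CPM in libraries 1, 2, 4, 5, 6 and 8, with stretched axon 5 above the somata (18.9 to 36.7 CPM) and the rest below. The log2 fold change there was -1.05 (SE 1.80, adjusted p = 0.882), and without stretched axon 5 it was -4.90 (adjusted p = 0.0455). Stretched axon 5 held 2754 counts of Miat and the other libraries at most 111. That fit was thus set by the choice of library and is no test of Miat. Whether the compartment difference itself changed with stretch was not tested for any of the 9 RNAs.

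**Figure D2:**
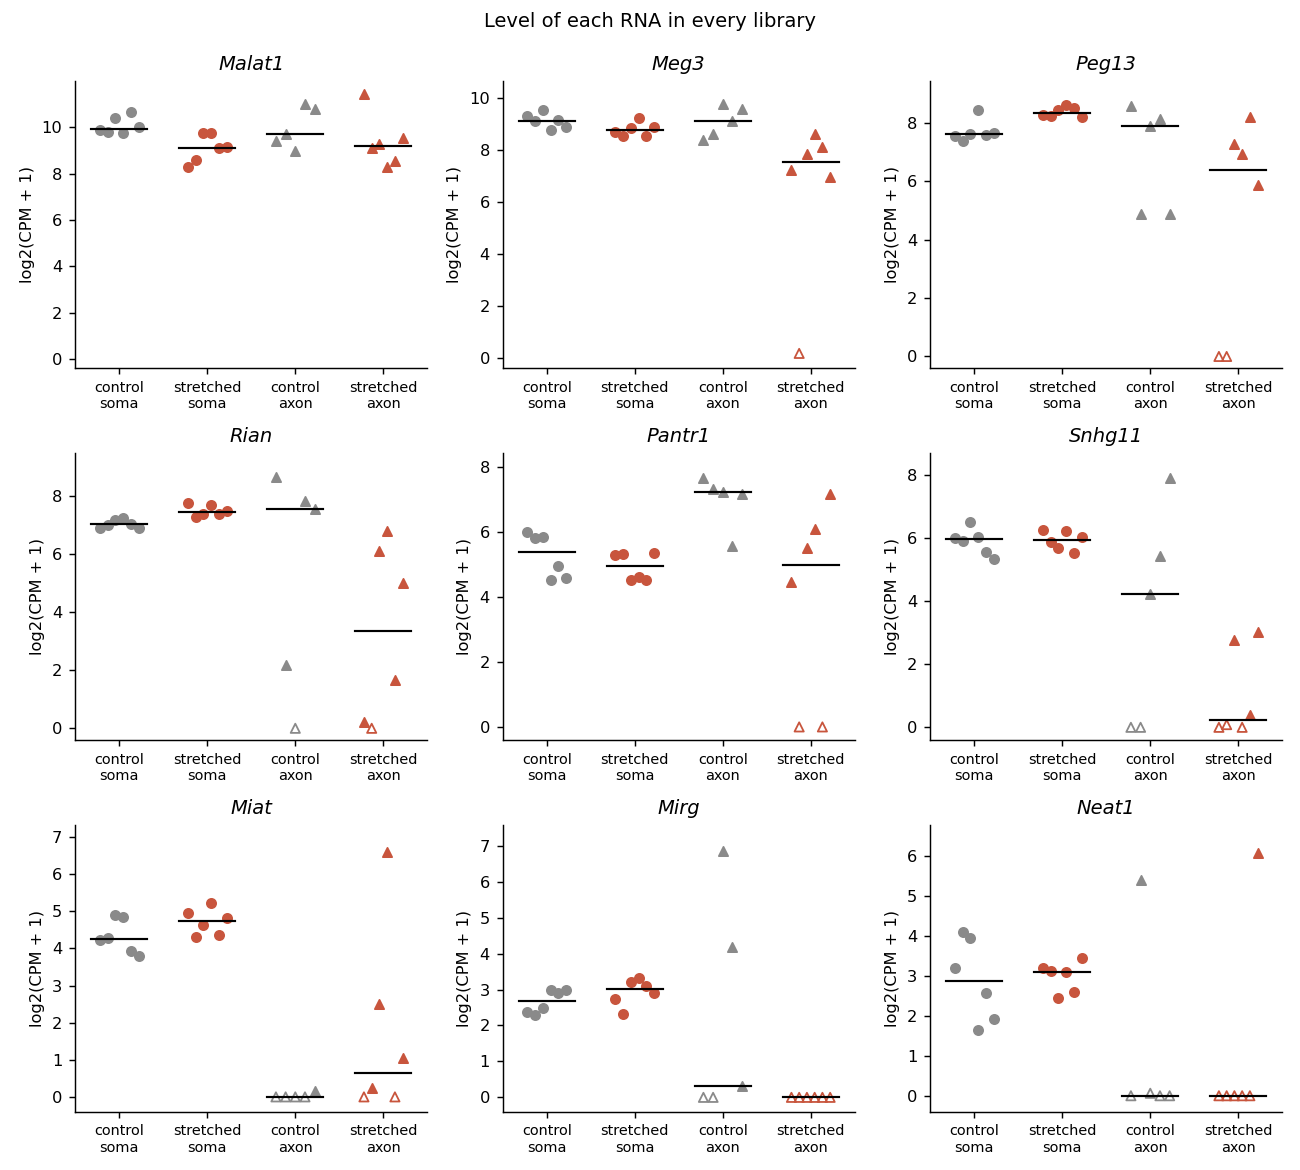
Level of each RNA in every library as log2(CPM + 1), with circles for somata, triangles for axons, grey for control, red for stretched, open symbols for libraries under 3 counts and a line at the group median. The soma values lie close together, while the axonal values of Neat1, Mirg, Miat and Snhg11 spread widely: each has 1 axonal library above all somata of its condition (Mirg 2) in 1 or both conditions, and others at or near 0. Mirg is at 0 in all stretched axons, and Miat in control axons and Snhg11 in stretched axons stay below all somata.

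Counted over the 9 RNAs, 1 passed the test between axons and somata in control cultures (Miat, lower), where 35.3% of 14728 genes passed in either direction and 34.4% as lower. It was also the 1 RNA whose groups did not overlap, against 41.6% of genes in either direction and 40.6% as lower. In stretched cultures 1 of 9 passed (Mirg, lower), where 29.3% of 14466 genes passed and 28.4% as lower. There 4 of 9 did not overlap (Rian, Mirg, Snhg11 and Peg13, all lower in axons), against 35.9% of genes in either direction and 34.6% as lower. The median log2 fold change of the 9 was -0.18 in control and -1.66 in stretched cultures, beside -1.40 and -1.13 over all genes tested. With 9 RNAs these counts are a description and not a statement about nuclear RNA as a class. Of the genes tested, 3995 of 14728 in control and 3172 of 14466 in stretched cultures had no count in 1 of the 2 groups. The calls of Miat and Mirg, and part of the shares over all genes, thus record RNAs with no or hardly any count in axons.

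The 9 RNAs took 0.234% ± 0.0791 of assigned reads in control axons (n = 5), 0.1303% ± 0.0836 in stretched axons (n = 6), 0.216% ± 0.0364 in control somata and 0.168% ± 0.0332 in stretched somata (n = 6 each). The ranges of the 4 groups overlapped: 0.146% to 0.322%, 0.0543% to 0.294%, 0.188% to 0.264% and 0.134% to 0.219%. Malat1 made up much of the sum, and without it the shares were 0.117%, 0.0409%, 0.104% and 0.109%. Between 5 and 8 of the 9 were detected per control axon library, and between 2 and 8 per stretched axon library. The fewest, 2, were in stretched axon 2, the shallowest library of all, and the most, 8, in control axon 7 and stretched axon 8.

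Other genes of nuclear RNA biology, listed by role, gave the setting for these values. Of 16 other long noncoding RNAs of nucleus or chromatin, values reached 3 counts in 22.4% of cases in control axons and 13.7% in stretched axons, beside 71.1% and 59.3% for the 9 RNAs. The lists differ in soma level, however: of the 17 gene IDs of the other RNAs 5 averaged under 1 CPM over the soma libraries and only Tug1 reached 100. By class of soma level the other RNAs were detected in 8 of 11 axonal values for Tug1 (72.7%), in 25.5% for the 5 IDs between 10 and 100 CPM and in 16.7% for the 6 between 1 and 10 CPM, beside 88.6%, 60.6% and 22.7% for the members of the same classes. These are few RNAs in each class, and the difference between the lists was not tested. Over all genes tested, 34.4% were lower in control axons and 28.4% in stretched axons, the shares to set beside each list count below. Both shares and list counts include genes with no count in the whole axonal group, which entered the test through the somata. For such genes a call records non-detection. Of the other long noncoding RNAs tested, 4 of 13 were lower in control axons and 5 of 13 in stretched axons, and none was higher. The latter included Firre, an X-linked RNA that anchors chromatin, at 4.39 CPM in stretched somata and no count in stretched axons (adjusted p = 1.56e-06), a call of that kind. Host RNAs of snoRNAs, most of which are spliced and exported, were detected in 43.8% and 34.4% of axonal values. Among them Gas5 was higher in control axons (183 against 35.5 CPM, log2 fold change 2.08, SE 0.58, adjusted p = 0.0133), and it is named, after its values were seen, as the 1 of 14 tested that was higher, with 4 lower; in stretched axons 3 of 14 were lower, Snhg12 among them at 0.00695 against 2.76 CPM (adjusted p = 2.72e-06). As a cytoplasmic reference, 12 transcripts described in axons were detected in every axonal library. Of these, 5 were higher and 2 lower in control axons, and 4 higher and 3 lower in stretched axons, with Tmsb4x, a thymosin that binds actin monomers, at 6004 against 2088 CPM in control cultures (adjusted p = 6.71e-06).

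Genes for protein partners of these RNAs and for nuclear RNA processing were counted next. Over all genes tested, again, 34.4% were lower in control axons and 28.4% in stretched axons, and the lists were not tested against these shares. None of 14 paraspeckle protein genes passed between axons and somata in either condition. Of 18 speckle and splicing genes, none passed in control cultures, and 1 was higher in stretched axons: U2af1, a splicing factor subunit, at 299 against 64.7 CPM (adjusted p = 0.0377). Of 11 genes of nuclear RNA decay and processing, 4 were lower in control axons and 2 in stretched axons. Dgcr8, the partner of Drosha in cutting primary miRNAs, had no count in the axons of either condition and 22.4 and 30.8 CPM in somata (adjusted p = 4.56e-05 and 1.85e-05). Its calls, like those of Wdr25 and Kcnk9 below, record non-detection in axons, since such genes entered the test through the somata. Of the genomic neighbours and imprinted partners, 6 of 14 were lower in control axons, among them Wdr25 and Kcnk9 with no count in control axons (adjusted p = 5.86e-06 and 9.63e-06), and 2 of 14 in stretched axons, Slc25a45 and Begain (adjusted p = 2.10e-06 and 5.58e-05).

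Stretching changed 3 of the 9 RNAs in somata: Malat1 fell, and Rian and Peg13 rose. This is beside 25.1% of 15632 genes that passed in either direction, 11.2% higher and 13.9% lower. Only Rian had groups that did not overlap, against 4.11% of genes in either direction and 1.84% as higher. Fewer cells of a kind and less RNA per cell cannot be told apart in such bulk libraries. Control soma 4 stood apart from its group: in a principal component analysis of the somata its score on component 1 (53.0% of variance over 9529 genes) was 19.2, within the stretched libraries (9.71 to 26.0) and away from the other controls (-31.3 to -21.7). The soma libraries also fell into 2 sets by the level of Eif2s3y, a Y-linked gene: set A (control 1, 2 and 3, stretched 1, 2 and 8) at 24.7 to 28.7 CPM and set B (control 4, 5 and 6, stretched 4, 5 and 6) at 5.39 to 13.2. The labels do not name these sets. Both conditions are present in each, so results are given within them too.

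Malat1 had 851 (median 984.5) to 1624 CPM in control somata and 311 (median 555) to 873 in stretched somata. The groups overlapped slightly. It fell 1.95-fold (log2 fold change -0.96, SE 0.26, adjusted p = 0.0188). Within set A the means were 1061 ± 264 and 419 ± 128 CPM (n = 3 each), without overlap (log2 fold change -1.34, adjusted p = 0.00908). Within set B they were 1170 ± 404 and 758 ± 181, with overlap (-0.66, adjusted p = 0.272), and -0.86 (adjusted p = 0.115) there without control soma 4. Testing all genes without a filter on low counts gave an adjusted p of 0.0694.

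Rian had 118 (median 128) to 147.5 CPM in control and 154 (median 170.5) to 214 in stretched somata, so that every stretched library was above every control library. It rose 1.34-fold (log2 fold change 0.42, SE 0.09, adjusted p = 0.00843). The groups also did not overlap within either set, at 128 ± 12.5 and 182 ± 30.3 CPM in set A (0.50, adjusted p = 0.0152) and at 132 ± 15.0 and 176 ± 23.4 in set B (0.39, adjusted p = 0.272). In set B without control soma 4 the log2 fold change was 0.45 (adjusted p = 0.0149).

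Peg13 had 168 (median 196) to 352 CPM in control and 298 (median 329) to 391 in stretched somata. The control of 352 CPM is control soma 4, and the other 5 held 168 to 202, below every stretched library. Peg13 rose 1.51-fold (log2 fold change 0.59, SE 0.15, adjusted p = 0.0141), and without control soma 4 the log2 fold change was 0.77 (adjusted p = 1.88e-05). In set A the log2 fold change was 0.72 (adjusted p = 0.00182), and in set B 0.54 (adjusted p = 0.272) with and 0.84 (adjusted p = 0.00038) without control soma 4.

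Meg3 and Pantr1 did not pass with all libraries. Both had negative log2 fold changes in every alternative fit, and passed the test in some of them. Meg3 had 432 (median 554) to 736 CPM in control and 364 (median 436) to 597.5 in stretched somata (log2 fold change -0.37, SE 0.14, adjusted p = 0.0555), and passed without control soma 4 (-0.45, adjusted p = 0.0134), without stretched soma 5 (-0.47, adjusted p = 0.0216) and with DESeq2 (-0.38, adjusted p = 0.0442). It also passed within set A, where the means were 634 ± 96.5 and 417.5 ± 49.3 CPM (adjusted p = 0.00676); in set B they were 488 ± 67.4 and 473.5 ± 117 (log2 fold change -0.07, adjusted p = 0.837). Whether the sets differed in this was not tested. Pantr1 had 21.9 (median 42.8) to 62.5 CPM in control and 21.7 (median 30.7) to 39.8 in stretched somata (log2 fold change -0.49, SE 0.29, adjusted p = 0.228). With the set as a covariate it was -0.42 (adjusted p = 0.00896), and within set A -0.58 (adjusted p = 0.00364) and within set B -0.19 (adjusted p = 0.531), with 58.2 ± 3.73 and 38.9 ± 0.780 CPM in set A and 24.9 ± 4.57 and 22.2 ± 0.801 in set B. The level of Pantr1 itself split the libraries by set, at 48.6 CPM in set A and 23.6 in set B without overlap, as did Neat1 at 10.7 and 4.48. Summed astrocyte markers moved with the sets in the same direction, at 11560 CPM in set A and 5823 in set B without overlap, and their part in the levels of Pantr1 and Neat1 was not tested.

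The remaining 4 did not pass the test in somata with all libraries. The log2 fold changes were 0.28 (SE 0.22, adjusted p = 0.378) for Mirg, 0.35 (SE 0.21, adjusted p = 0.236) for Miat, -0.02 (SE 0.17, adjusted p = 0.947) for Snhg11 and -0.22 (SE 0.44, adjusted p = 0.734) for Neat1. Miat passed in set B without control soma 4 alone (0.92, adjusted p = 0.0275). Neat1 was 12.8 ± 4.19 and 8.62 ± 1.16 CPM in control and stretched somata of set A, and 3.30 ± 1.48 and 5.66 ± 1.60 in those of set B, the opposite order, with overlap in both sets. Of the 3 cluster RNAs in somata, Rian rose, while Meg3 and Mirg did not pass and had fold changes of opposite sign. Mirg had the same sign as Rian, and its stretched libraries were higher without overlap in set B but not in set A. Whether the 3 RNAs differed in their change was not tested.

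**Figure D3:**
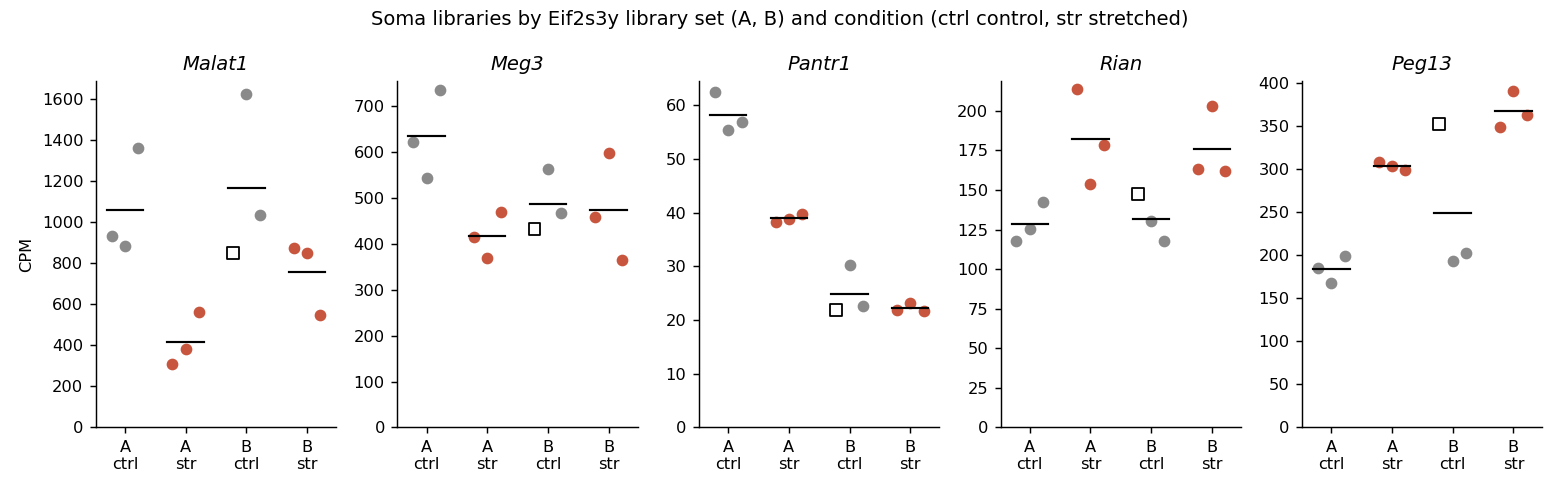
CPM of 5 RNAs in the soma libraries, by Eif2s3y set (A or B) and condition, with a point for each library, a line at the mean of 3 and an open square for control soma 4. Rian is higher in all stretched libraries of both sets; Malat1, Meg3 and Pantr1 are lower without overlap in set A only, and the Peg13 value of control soma 4 lies at the stretched level.

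The fold changes in somata varied with transcript length over all genes. Spearman's rho between the length of the exons and the log2 fold change was 0.407 across 15619 genes, which are not independent replicates. The median log2 fold change was -0.33 for genes under 2 kb, -0.16 from 2 to 4 kb, 0.08 from 4 to 8 kb and 0.20 from 8 kb on. Malat1 (6.98 kb) and Peg13 (4.72 kb) belong to the class from 4 to 8 kb, and Meg3 (18.1 kb) and Rian (18.2 kb) to that from 8 kb on. These lengths join the exons of all annotated transcripts, and the Rian transcript shown above has 8089 bases. The part of transcript length or of RNA integrity in these values was not tested.

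Related genes in somata moved in both directions. Over all genes tested, 11.2% passed as higher and 13.9% as lower. Among the other nuclear long noncoding RNAs, 2 of 14 rose and 1 fell: Tug1, a chromatin-associated RNA that is also exported, rose from 257 to 450 CPM (log2 fold change 0.77, SE 0.22, adjusted p = 0.0216), Dlx6os1 (Evf2), which regulates the Dlx genes of interneurons, rose from 13.5 to 17.6 CPM, and Pvt1, a neighbour of Myc, fell from 15.4 to 11.4 CPM. Of 14 paraspeckle protein genes, 4 rose and 1 fell; Tardbp, which encodes the RNA-binding protein TDP-43, rose from 93.4 to 127 CPM (log2 fold change 0.41, SE 0.08, adjusted p = 0.00616) without overlap, and Smarca4, a chromatin remodeller, fell (log2 fold change -0.41, SE 0.08, adjusted p = 0.00575). Of 18 speckle and splicing genes 1 fell, U2af1, from 93.2 to 64.7 CPM (adjusted p = 0.00678). In the list on RNA decay and processing Drosha rose from 131.5 to 196 CPM (log2 fold change 0.54, SE 0.12, adjusted p = 0.00938) and Pabpn1, the nuclear poly(A)-binding protein, fell from 5.80 to 4.04 (adjusted p = 0.0481), with 9 of 11 not passing. Of 14 snoRNA hosts 1 fell, Snhg12. Pou3f3, the neighbour of Pantr1, rose from 17.4 to 23.3 CPM (adjusted p = 0.0172), while 2 of the 14 neighbours fell, Tpst2 and Chrac1. All 12 cytoplasmic reference transcripts fell, with a median log2 fold change of -0.44 beside -0.03 over all genes and 0.17 for the other nuclear long noncoding RNAs; Tmsb10, a thymosin, fell from 1318 to 926 CPM (adjusted p = 0.00293). These 12 have mostly short transcripts, and the length trend above was not separated from their change.

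Marker lists in somata gave the following, beside 11.2% of all genes that passed as higher and 13.9% as lower. None of 8 astrocyte markers passed between stretched and control somata. Of 8 neuronal markers 4 fell and 1 rose. Among microglial markers 2 of 8 fell, C1qa from 13.8 to 5.56 CPM and C1qb from 21.2 to 12.5, both without overlap. The summed microglial level was 54.4 to 106 CPM in control and 43.9 to 57.0 in stretched somata, with none of the 8 at 0. Of 8 fibroblast and vessel markers 1 fell, and of 6 oligodendrocyte markers tested 1 rose. The part of these cells in the changes of Malat1, Rian and Peg13 was not tested.

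In axons no RNA passed between stretched and control cultures. Of the 9, 6 had enough counts to be tested; Neat1, Mirg and Miat were filtered out. None of the 4947 genes tested passed in edgeR's quasi-likelihood test (0% called, 46 at an unadjusted p under 0.05), whereas DESeq2 called 859 of 16409 (5.23%). Groups did not overlap for 0.323% of genes and for none of the 9. All 6 tested RNAs had negative log2 fold changes: Malat1 -0.55 (SE 0.57), Meg3 -1.55 (SE 1.08), Rian -2.19 (SE 2.35), Snhg11 -4.65 (SE 2.85), Peg13 -0.84 (SE 1.99) and Pantr1 -1.48 (SE 2.07). Each error is nearly as large as the value or larger except for Meg3 and Snhg11, and the adjusted p was 1.00 for all. Among the 9, DESeq2 called Mirg alone as lower (adjusted p = 2.52e-16), which rests on the 3 control libraries that held it. Rian rose in somata (mean difference of 49.0 CPM), while its mean difference in axons, -127 CPM with control axons at 0 to 397 CPM, did not pass; whether the compartments differed was not tested. No gene of the lists passed in axons; the most abundant of the other nuclear long noncoding RNAs tested, Tug1, had 158 CPM in control and 136 in stretched axons.

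**Figure D4:**
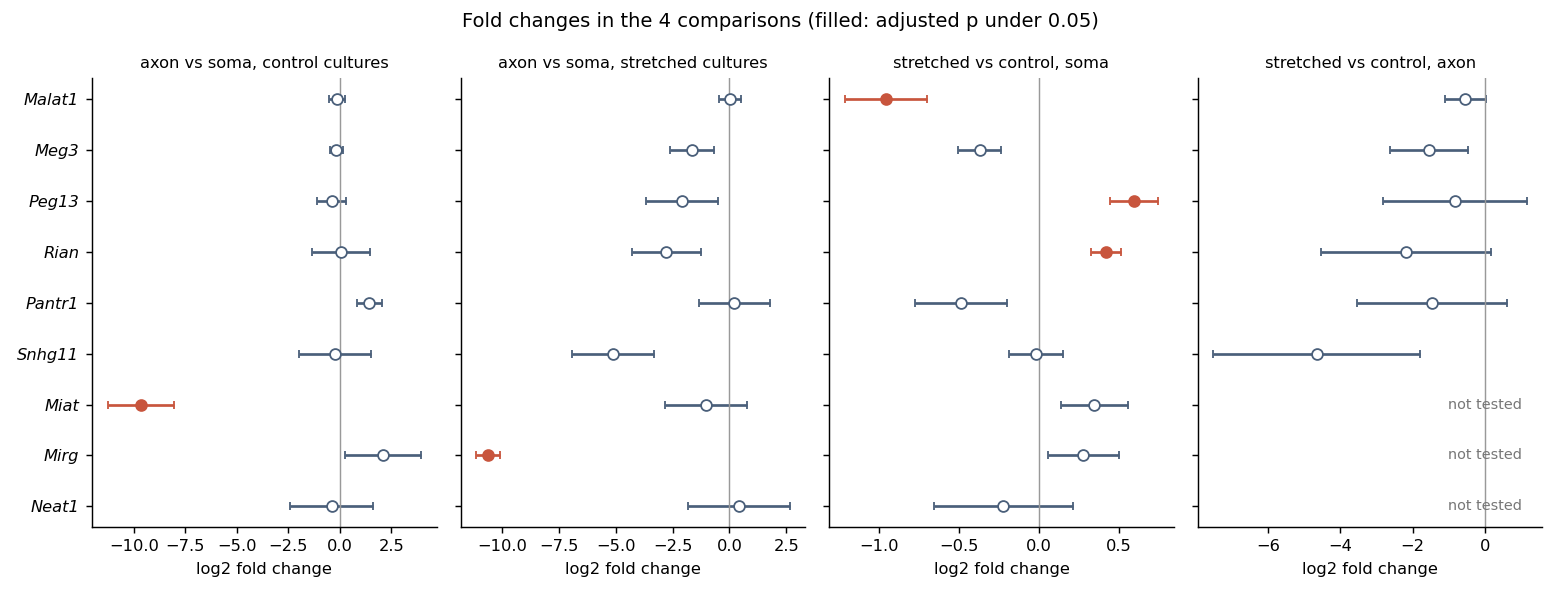
Log2 fold change of each RNA with its standard error in the 4 comparisons (edgeR), filled where the adjusted p was under 0.05, with the x axis scaled separately in each panel. Axonal comparisons have errors of up to 2.85, soma comparisons of at most 0.44. The fitted values of Miat in control and Mirg in stretched axons, with 3 and 0 counts, depend on the prior count and are no bounds; Miat and Mirg pass between compartments, and Malat1, Rian and Peg13 with stretch in somata.

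Across the 12 soma libraries, the genes whose levels were most like each RNA were named by Pearson's r of log2 levels over all genes of at least 10 CPM in somata, as a description. The libraries share conditions and the 2 sets, which all genes follow in part. Peg13 was closest to Pcdh20 (r = 0.994), a protocadherin, and Trove2 (0.994), and Pantr1 to Pqlc3 (0.987) and Abhd4 (0.977). Malat1 was closest to Prrc2c (0.920) and Pqlc1 (0.919), Neat1 to mt-Nd5 (0.941), a mitochondrially encoded subunit of complex I, and Apopt1 (0.929). Meg3 was closest to Usmg5 (0.932) and Llph (0.892), Rian to Nvl (0.937) and Anp32e (0.936), Mirg to Ttc39b (0.933) and Pcdh17 (0.932), Miat to Snhg6 (0.861) and Zfp870 (0.860), and Snhg11 to Leng8 (0.901) and Ccdc39 (0.877). Among the 9 themselves the highest r was 0.812, between Neat1 and Pantr1, and the lowest -0.891, between Mirg and Pantr1. Within the Dlk1-Dio3 cluster r was -0.369 for Meg3 and Rian, 0.428 for Rian and Mirg and -0.221 for Meg3 and Mirg, so the 3 neighbours did not vary together across these libraries.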

How the data were processed

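The authors deposited raw read counts per Ensembl gene, 1 file for each of 23 libraries; these counts were made with fastp 0.20.1, STAR 2.7.08a, HTSeq 0.13.5 and mm10, per the submitters' processing notes. The labels state unique molecular identifiers; whether they were used to remove duplicates is not given in the sources used here, so intervals cover counting error only. Of 55487 IDs, 55141 matched GENCODE M21. Reads without a gene were left out of library sizes. CPM are counts per 1000000 assigned reads, and detection means at least 3 counts. Each pair of groups was fitted on all genes with edgeR 4.0.16 (filterByExpr, TMM, robust quasi-likelihood test, two-sided, Benjamini-Hochberg threshold 0.05), after a check on simulated data. Alternatives were DESeq2 1.42.0, total counts, no filter, the replicate number as a block, each library left out and, added after seeing the data, the Eif2s3y sets. The 9 RNAs and all lists were chosen with earlier results of these data known. From each list, up to 3 genes with the smallest adjusted p were eligible for naming, or the most abundant if none passed. One sequence is not reported here.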

Additional observations from a re-analysis of the deposited data

Results flagged for a closer look

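In 8 of 36 groups tested (9 RNAs in 4 groups), 1 library lay far from the others by Dixon's gap test. Chance gives about 1 in 20 for normally distributed values; that rate does not apply to groups in which most libraries are at or near 0, where 1 library with counts is set apart whatever its value, so the 8 are given as a description. In stretched axons these were Malat1 at 2777 CPM in library 1 (others 308.5 to 745), Neat1 at 66.7 CPM in library 8 (others 0) and Miat at 96.5 CPM in library 5 (others 0 to 4.63). In control axons they were Neat1 at 41.2 CPM in library 2 (others at most 0.0441), Mirg at 114 CPM in library 3 (others 0 to 17.2), Snhg11 at 239 CPM in library 7 (others 0 to 42.5) and Miat at 0.117 CPM in library 7 (others 0), the last resting on 3 counts. The 1 case in somata was Peg13 at 352 CPM in control soma 4 (others 168 to 202). The 7 axonal cases fall in 6 different libraries, with control axon 7 holding 2 of them.

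For Rian every stretched soma library was above the control soma mean and every stretched axonal library below the control axon mean, with mean differences (stretched minus control) of 49.0 CPM and -127 CPM. The change in somata passed (log2 fold change 0.42, SE 0.09, adjusted p = 0.00843 in edgeR's quasi-likelihood test). The one in axons did not (-2.19, SE 2.35, adjusted p = 1.00), with control axons at 0 to 397 CPM overlapping the stretched ones. Whether the compartments differed was not tested.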

How the results depend on the processing

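For counting error alone, a count of 0 allows at most 0.183 CPM, well under the spread between axonal libraries, which for Rian ran from 0 to 397 CPM. That limit does not cover RNA missed before counting. A count of genes passing differed by more than 1.5 times as follows. Between axons and somata in control cultures, 5196 of 14728 genes passed (35.3%), 10187 of 30188 with DESeq2 (33.7%) and 10714 of 30188 without the filter (35.5%). Leaving out 1 library gave 4542 to 8151, or 32.1% to 53.6% (8151 without control axon 5). In stretched cultures 4234 of 14466 passed (29.3%), 10086 of 31176 with DESeq2 (32.4%) and 10931 of 31176 without the filter (35.1%). Leaving out 1 library there gave 4174 to 6499, or 28.7% to 43.3% (6499 without stretched axon 8). The higher counts with DESeq2 and without the filter thus came mostly with more genes tested. Scaling to total counts moved the median log2 fold change of all genes from -1.40 to -1.27 and from -1.13 to -0.73. Of the 9 RNAs, 1 to 2 passed in control cultures over libraries left out and 2 with DESeq2. In stretched cultures 1 to 3 passed over libraries left out, 2 with DESeq2 and 2 without the filter. The leave-out counts include calls set by the choice of library, of Neat1 in both conditions and of Miat in stretched cultures. In somata 3929 genes (25.1%) and 3 of the 9 passed with stretch. Leaving out 1 library gave 2666 to 6072 genes, or 16.8% to 38.3% (6072 without control soma 4), and 3 to 4 of the 9. Without the filter 3030 of 32870 genes passed (9.22%). With the Eif2s3y set as covariate and without control soma 4 it was 7000 genes (44.1%) and 5 of the 9. Within set A it was 4637 genes (29.2%) and 5 of the 9, and within set B 0 genes (2739 at an unadjusted p under 0.05) and 0 of the 9. In axons 0 genes passed with stretch under every edgeR fit, and DESeq2 called 859 of 16409 genes (5.23%) and 1 of the 9. Malat1 in somata lost its call without the filter (-0.94) and within set B, while Rian and Peg13 lost theirs within set B with control soma 4 only.

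The labels do not say that a replicate number pairs libraries, and in no comparison did every same-numbered pair have a correlation of deviations above 0.1. Between axons and somata and between the axonal groups the correlations were -0.0238 to 0.0891. Between stretched and control somata they were 0.00277 to 0.397 (median 0.285 over 5 pairs, beside -0.00703 for other numbers), 2 of the 5 being highest with their own number; each number shared there lies in the same Eif2s3y set in both conditions, so a block on the number also carries the set. With the block 3209 genes (20.5%) and the same 3 of the 9 (Malat1, Rian and Peg13) passed in somata. With the replicate block 7687 genes (53.1%) and 3 of the 9 passed between axons and somata in stretched cultures. The block reversed the log2 fold change of Rian (-2.84) and Mirg (-2.92) between axons and somata in control cultures. It also reversed those of Malat1 (-0.30), Neat1 (-9.54) and Pantr1 (-1.43) in stretched cultures, and of Neat1 (0.22) and Snhg11 (0.11) in somata.

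Signs also changed for differences that did not pass. Between axons and somata in control cultures, total counts gave 0.074 for Malat1, 0.031 for Neat1 and 0.046 for Meg3, and no filter gave -0.030 for Rian; leaving out 1 library gave -0.54 to 0.054 for Malat1, -0.48 to 0.38 for Rian, -0.38 to 2.41 for Mirg and -2.08 to 0.088 for Snhg11. In stretched cultures that range was -0.60 to 0.35 for Malat1, -10.71 to 0.67 for Neat1 and -0.73 to 0.49 for Pantr1. In somata it was -0.43 to 0.10 for Neat1 and -0.11 to 0.12 for Snhg11. Neat1 was 0.023 with the set as covariate and 0.75 and 0.50 within set B with and without control soma 4. Snhg11 was 0.020 with total counts, 0.011 without the filter, 0.058 with the set as covariate and without control soma 4, and 0.16 and 0.35 within set B with and without control soma 4. The shares of reads without Malat1 were 0.117%, 0.0409%, 0.104% and 0.109% in control axons, stretched axons, control somata and stretched somata. Detection of 3 counts kept within 1.5 times of its main count under its alternatives. The cause of these changes was not tested.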
